A study of Drosophila melanogaster with 6 samples.

Results

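This report describes how adult Drosophila melanogaster carrying the gyc76c[KG03723] allele responded to an injected bacterium. The members are all genes of one comparison between a pair of arrays, gyc76c[KG03723] flies injected with Staphylococcus saprophyticus against gyc76c[KG03723] flies injected with phosphate-buffered saline (PBS), both taken 12 hours after injection. These are 2 of the 6 arrays of the series, and 9669 of its 11982 genes were measured on at least 1 of them. The other arrays hold spz[rm7] flies and gyc76c[revert] control flies, each after bacteria and after PBS. The 3 genotypes are called KG03723, rm7 and revert below.

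Each array was made from total RNA of whole bodies of adult flies reared at 25 °C, per the labels. The labels give neither the sex of the flies nor how many were pooled for an array. The KG prefix is that of a collection of P element insertion lines, and the labels say neither where the element lies nor how the revert line was made. Each group is 1 array, so no spread between replicates can be given and no comparison below has a test. Every ratio is that of 2 arrays.

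Staphylococcus saprophyticus is a Gram-positive bacterium. In flies, peptidoglycan of many Gram-positive bacteria is sensed in the blood, a chain of serine proteases cleaves the cytokine Spätzle, and cleaved Spätzle activates the receptor Toll. The fat body, which corresponds to liver and adipose tissue, then makes antimicrobial peptides through the NF-kappaB factors Dif and Dorsal. A second pathway, IMD, answers mainly to peptidoglycan of the Gram-negative type through the factor Relish. Gyc76C is a transmembrane receptor guanylate cyclase that makes the second messenger cGMP, and spz encodes Spätzle.

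The annotation pairs each of the 3 Gyc76C probe sets with another gene, and the data do not say which of the genes gave the signal. The brightest of them read 1234 after bacteria and 1085 after PBS in KG03723, and 2004 after bacteria and 2092 after PBS in revert. What the allele does to the transcript is not stated in the labels, and no check of the genotype is drawn from this level. The transcript of cnk, a gene for a scaffold protein of Ras signalling, was below the floor on both KG03723 arrays, at 26.7 and 21.0, against 950.1 and 874 in revert. The floor is a signal of 42.7, the 40th percentile of all values, and lower signals were set to it before ratios were taken. The transcript of spz read 1094 after bacteria and 942 after PBS in KG03723.

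Marker genes of every tissue looked at gave signal on both KG03723 arrays, as most genes did. Of 46 marker genes listed for blood cells, testis, accessory gland, ovary, fat body, muscle, eye and gut, 42 were on the array under a single gene, and 41 of these were above the floor on both KG03723 arrays. The crystal cell list held the 1 exception. Of all 11982 genes, 9223 were above the floor on both KG03723 arrays, so passing it is a weak sign of a tissue. The ratios of 3′ to 5′ signal for the actin, GAPDH and eIF-4a controls, a sign of RNA quality, were 2.51, 2.34 and 6.44 after bacteria and 2.37, 2.41 and 6.06 after PBS. Over the 6 arrays these ratios ran from 2.29 to 2.81, from 1.99 to 2.68 and from 5.66 to 6.61.

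Few genes were far apart between the KG03723 arrays. Of the 9669 measured genes, 48 were at least 2-fold higher after bacteria (0.496%) and 87 at least 2-fold lower (0.9%), together 135 (1.4%). Only 14 were at least 4-fold apart, 6 of them higher and 8 lower. The log2 ratio of the median gene was 0.02, and 90% of genes lay between -0.56 and 0.42. Of all measured genes 53.9% lay above 0 and 46.1% below, the background for each KG03723 list count that follows. In 5 of the 48 and 10 of the 87 the dimmer array was below the floor, so those ratios are bounds. At the edge of the 2-fold threshold, CG32642 read 211 after bacteria and 105 after PBS and was counted, while CG16713 read 10141 and 5138 (0.98) and was not. Among lower genes CG7329 was the nearest counted, at 41.5, below the floor, and 85.5, and CG13813 the nearest left out, at 111 and 222.

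**Figure D1:**
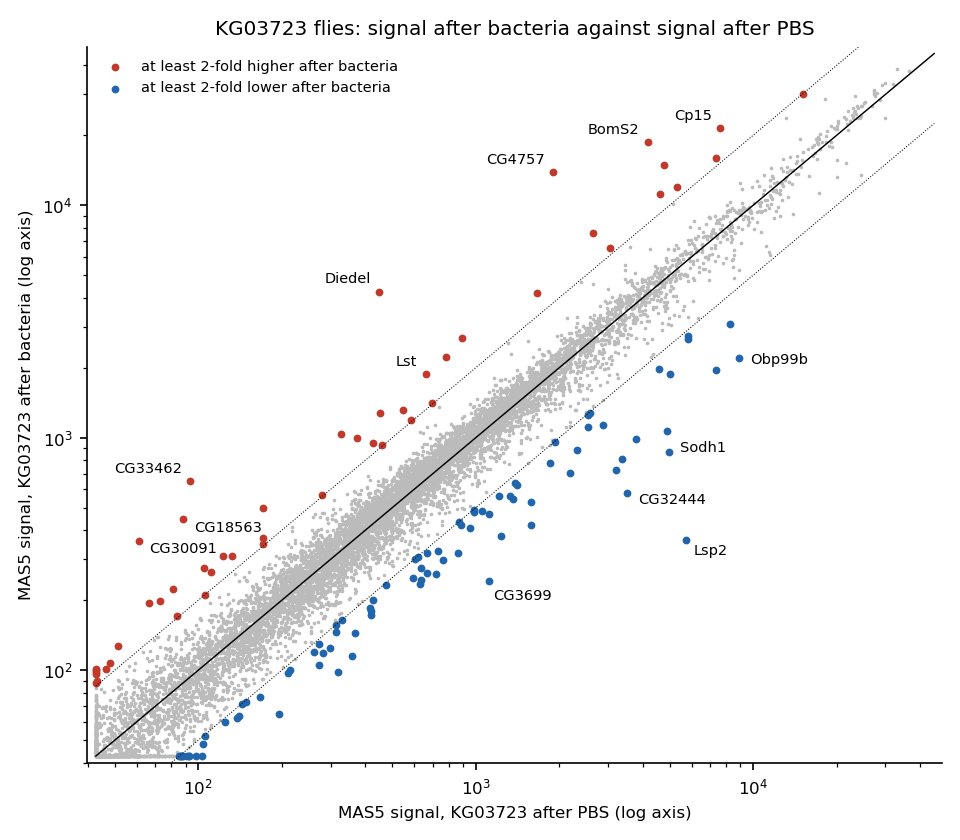
MAS5 signal of each measured gene in KG03723 flies after bacteria (vertical axis) against PBS (horizontal axis), both on log axes, with signals below the floor drawn at the floor. Red points are the 48 genes at least 2-fold higher after bacteria, blue points the 87 at least 2-fold lower, and dotted lines mark 2-fold. Diedel and CG4757 stand farthest above the diagonal among bright genes and Lsp2 farthest below it.

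Within the same 2 arrays, probe sets of the same gene gave an idea of measurement error, though not of the spread between flies. For 429 genes with at least 2 probe sets above the floor, the log2 ratios of those probe sets varied with a pooled SD of 0.29. None of the 48 higher genes had another such probe set. Of the 87 lower genes, 4 had 1 each. All 4 further probe sets lay below 0 and 2 of them were at least 2-fold lower.

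Peptide genes that answer to Toll signalling had higher signals after bacteria in KG03723 flies. Of 20 listed genes 11 were on the array under a single gene. BaraB was below the floor on both KG03723 arrays, and the other 10 all lay above 0 (background: 53.9% of measured genes). Of these, 5 were at least 2-fold higher, where the background is 0.496%. Their median log2 ratio was 0.99, or 0.86 over all 11, beside 0.02 for all measured genes. All 10 lay above 0 in revert and in rm7 as well, with medians of 0.83 and 0.60, and 3 and 0 of them were at least 2-fold higher there. Levels in rm7 were lower. After bacteria every one of these genes but Mtk read lower in rm7 than in KG03723. BomBc3 read 1123 after bacteria in rm7 and 14889 in KG03723, BomT3 1721 and 11935, and Drs 12983 and 28717. Mtk read 29644 in rm7 and 29460 in KG03723.

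The Bomanins, short secreted peptides that flies need to survive many Gram-positive and fungal infections, gave the largest ratios in this list. BomS2 read 18727 after bacteria and 4168 after PBS (4.49-fold, log2 2.17), and 29099.9 after bacteria and 14956 after PBS in revert (log2 0.96). Its KG03723 signal was thus below revert after both injections, with the wider gap after PBS. BomBc3 read 14889 and 4793 (3.11-fold), against 20235 and 8977 in revert, where its log2 ratio was 1.17 and that in KG03723 1.64. BomT2 read 11232 and 4616 (log2 1.28), against 11515 and 4226 in revert (1.45). BomT3 read 11935 and 5315 (1.17), against 12794 and 6566 in revert (0.96). For these last 3 genes the level after bacteria was also somewhat lower in KG03723 than in revert.

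The other Bomanins had smaller ratios. BomS5 read 16021 and 7324 (1.13) in KG03723, against 10899.7 and 6750.4 in revert (0.69), higher in KG03723 after both injections. BomBc2 read 23773 and 13099.5 (0.86), against 26637 and 9958 in revert (1.42). BomS6 read 8039 and 5922 (0.44), and BomS4 2543 and 2281 (0.16), both above the revert signals on each array. In the RefSeq gene table BomT2 and BomS5 are direct neighbours, with 1 gene between BomT2 and BomS2, and BomBc3 and BomT3 are direct neighbours as well.

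The antifungal peptide genes Drs, which encodes drosomycin, and Mtk, which encodes metchnikowin, were already bright after PBS. Drs read 28717 and 18196 (0.66), against 27602 and 20396 in revert (0.44). Mtk read 29460.2 and 23240.3 (0.34), against 30062 and 24081 in revert (0.32). The highest signal on the KG03723 bacteria array was 38658, and whether signals this bright were compressed was not tested. Of the 5 measured drosomycin-like genes, Drsl3 was at least 2-fold higher, at 565 and 279 (1.02), and Drsl4 lay lowest, at 542 and 764 (-0.49).

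**Figure D2:**
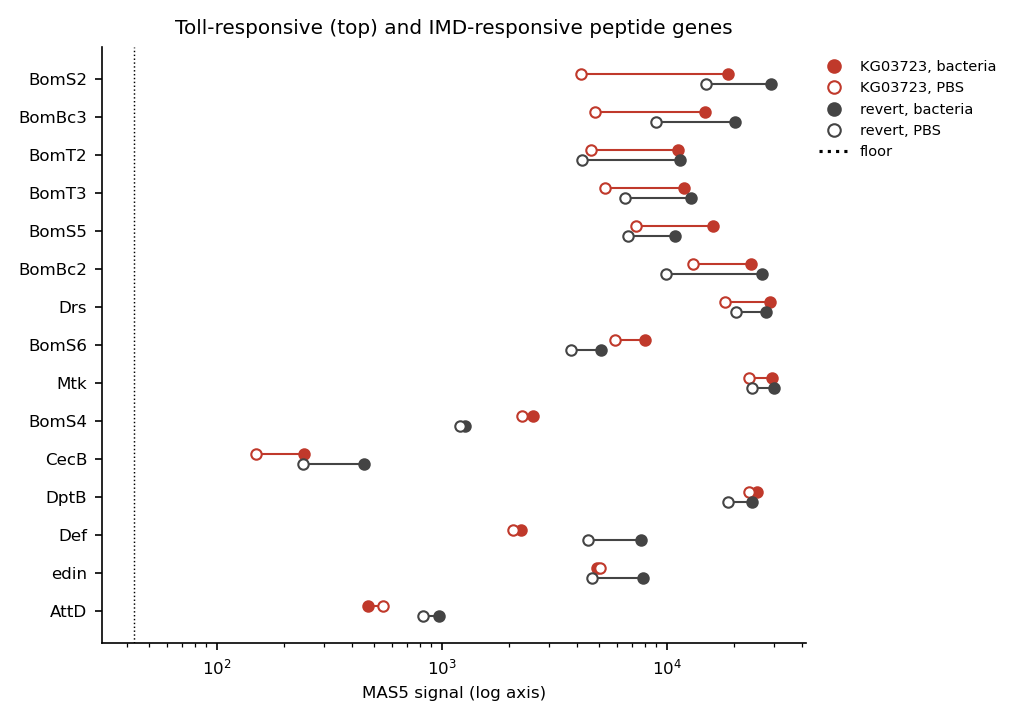
MAS5 signal on a log axis for the 10 measured Toll-responsive peptide genes (top) and 5 IMD-responsive peptide genes (bottom), each group ordered by its ratio in KG03723. Filled points are bacteria arrays and open points PBS arrays, red for KG03723 and grey for revert, and the dotted line is the floor. BomS2 has the widest red span and AttD and edin a filled red point left of the open one.

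Upstream of Toll, a serine protease and a serpin gene were at least 2-fold higher. Of 14 listed recognition and cascade genes 9 were measured, 6 above 0 (background: 53.9%) and 2 at least 2-fold higher (background: 0.496%), with a median of 0.22. SPE, the protease that cleaves Spätzle, read 6528 after bacteria and 3058 after PBS (2.13-fold, log2 1.09), against 6745 and 2259 in revert (1.58). The gene nec, which encodes the serpin Necrotic that restrains the cascade, read 4197 and 1666 (1.33), against 3705 and 1362 in revert (1.44). Hayan, a protease of the cascade and of melanization, read 252 and 146 (0.79), against 407 and 133 in revert (1.62). The protease gene spirit read 166 and 101 (0.71), against 224 and 103 in revert (1.12). All 4 had the higher signal after bacteria in both genotypes, and all 4 had the smaller ratio in KG03723. They were named for the size of their KG03723 ratio, and the gap was smallest for nec (-0.11). The 0.29 SD between probe sets comes from the KG03723 arrays alone. It does not measure the error of a gap between genotypes, so none of these gaps was tested. Of the other measured genes, GNBP2 (0.17, against -0.52 in revert) and spz (0.22, against 0.08) had the larger ratio in KG03723, and the rest the lower one. The protease gene grass lay below 0, at 308 and 435 (-0.50).

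Inside the cell, 13 of 13 listed genes for Toll and its transducers were measured, and 0 were 2-fold apart (background: 1.4%). Their median was 0.16, with 10 above 0 (background: 53.9%). The largest was cact, which encodes the inhibitor of Dorsal and Dif and is itself a target of the pathway, at 5513 after bacteria and 3465 after PBS (0.67), and its second probe set gave 0.41. The adaptor gene Myd88 read 263 and 369.9 (-0.49), tub 1022 and 771 (0.41) and Dif 46.2 and 63.0 (-0.45).

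IMD-responsive peptide genes were close to their PBS level in KG03723. Only 5 of 13 listed genes were on the array under a single gene, so these values describe a part of the list. All 5 were measured, 3 lay above 0 (background: 53.9%) and 0 were 2-fold apart (background: 1.4%), and the median was 0.12. In revert the same 5 all lay above 0 with a median of 0.75, and in rm7 also, with a median of 0.84. The difference between genotypes has no test here. CecB, a cecropin gene, read 244 after bacteria and 149 after PBS (0.71), and 451 after bacteria and 243 after PBS in revert. Def, the defensin gene, read 2253 and 2068 (0.12), against 7683 and 4475 in revert (0.78). Its KG03723 signal was less than the revert signal after either injection. The gene edin read 4926 and 5083 (-0.05), against 7832 and 4656 in revert (0.75). AttD, an attacin gene, read 473 and 548 (-0.21), against 974 and 825 in revert, and DptB, a diptericin gene, 25323 and 23154 (0.13), against 24067 and 18705 in revert.

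The receptors and enzymes that bind peptidoglycan showed a similar picture. Of 6 measured IMD receptor and amidase genes 5 lay below 0 (background: 46.1%), with a median of -0.18, against 0.30 in revert and 0.68 in rm7. PGRP-SB1, a secreted amidase gene, read 6088 after bacteria and 11468 after PBS (-0.91), and 5469.5 after bacteria and 7289 after PBS in revert (-0.41). PGRP-SC2, also an amidase gene, read 4329 and 5016 (-0.21), against 5104 and 3395 in revert (0.59). Of the 16 measured intracellular IMD genes, 0 were 2-fold apart (background: 1.4%), with a median of 0.09. Rel, which encodes Relish, had the largest ratio, at 1768 and 1224 (0.53), against 2129 and 1309 in revert (0.70).

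The largest ratio of any named gene belonged to Diedel, which encodes a secreted protein that dampens IMD signalling. It read 4256 after bacteria and 449.95 after PBS (9.46-fold, log2 3.24), and 15872 after bacteria and 5689.9 after PBS in revert (log2 1.48). Both KG03723 signals lay below both revert signals, so the larger ratio went with a lower level. CG4757 read 13896 and 1907 (7.29-fold), against 18036 and 5095 in revert (log2 1.82), again with lower signals in KG03723 after each injection. In rm7 the signals were lower, Diedel at 333 after bacteria and 248 after PBS and CG4757 at 124 and 82.3.

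Next came a group of serine protease family genes with no assigned role. CG33462 read 651 after bacteria and 93.7 after PBS (6.95-fold), against 743 and 102 in revert. CG30091 read 360.5 and 61.1 (5.89-fold), against 334 and 39.7 in revert, where the PBS array was below the floor. With a floor at the 60th percentile the KG03723 log2 ratios of CG30091 and CG18563 were 0.58 and 0.88. CG18563 read 445 and 88.4 (5.04-fold), against 255 and 86.0 in revert, and CG11842 1037 and 327 (3.17-fold), against 1262 and 294 in revert. Signals of the first 3 after bacteria were 2.59, 3.61 and 27.2 in rm7, all below the floor.

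Further genes near the top were of several kinds. Lst, which encodes limostatin, a hormone that suppresses insulin release, read 1884 after bacteria and 659.6 after PBS (2.86-fold), against 1580.4 and 362 in revert. Spn28Dc, a serpin gene that limits melanization, read 500.3 and 171 (1.55), against 693 and 288 in revert (1.27). CG30026 read 2681 and 894 (1.58) and CG16772 2234 and 784 (1.51). All 4 had the higher signal after bacteria in revert too. The gene sun, which encodes Stunted, a subunit of the mitochondrial ATP synthase, read 195 and 66.2 (1.56), against 157 and 205 in revert (-0.39). Its KG03723 PBS array was the low one, since the other 5 arrays read between 157 and 213.

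Bounds were small by comparison. NimB1, a nimrod family gene of blood cells, read 101 after bacteria and 31.6 after PBS, where the PBS array was below the floor, at least 2.37-fold higher. CG32100, CG13731, CG42680 and CG17648 were at least 2.33-fold, 2.3-fold, 2.26-fold and 2.06-fold higher. On the lower side CG30457, CG32523, CG32726, CG15674 and tj were at least 2.41-fold, 2.29-fold, 2.17-fold, 2.17-fold and 2.13-fold lower.

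Late eggshell genes were also among the higher ones. Cp15, a chorion gene, read 21519 after bacteria and 7627 after PBS (2.82-fold), and 17553 after bacteria and 16067 after PBS in revert (0.13). Cp18, its direct neighbour in the RefSeq table, read 7613 and 2651 (1.52), against 4625 and 5549 in revert (-0.26). Muc12Ea read 1275 and 453 (1.49), against 1395 and 1029 in revert (0.44), and Cp16 6628 and 3589 (0.89), against 5177 and 5612 in revert (-0.12). In Cp15, Cp18, Cp16 and Muc12Ea the KG03723 PBS signal was lower than that of both revert arrays. In rm7 the ratios of all 4 ran the other way, with Cp16 lowest at 659.7 after bacteria and 8507 after PBS (-3.69) and Cp15 at 4354 and 11958. There 6 of the 15 eggshell genes were at least 2-fold lower, where the background in rm7 is 0.337%. Cp36 and Cp38, chorion genes of earlier follicle stages, were picked after their values were seen and lay on the other side, at 15252 and 21657 (-0.51) and 11279 and 17319.6 (-0.62). Over the 15 measured eggshell genes of 19 listed, 3 were at least 2-fold higher (background: 0.496%) and 0 lower, 8 lay above 0 (background: 53.9%), and the median was 0.03. Ovary germline genes had 15 of 17 above 0 (background: 53.9%) and a median of 0.19. Fewer cells of a type and less RNA per cell cannot be told apart in whole flies, here or for the blood-cell genes below.

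The lowest gene was Lsp2, which encodes a storage protein of the hexamerin family made by the fat body. It read 362 after bacteria and 5719 after PBS in KG03723, 15.8-fold lower (log2 -3.98), and 218 after bacteria and 2431 after PBS in revert (log2 -3.48). The KG03723 signal was the higher after either injection, and in rm7 Lsp2 read 787 and 1583. The odorant-binding protein genes Obp99a and Obp99b, from a family of small secreted proteins that bind ligands, were also low. Obp99a read 1066 and 4877 (-2.19), against 801 and 2203 in revert (-1.46), and Obp99b 2201 and 8921 (-2.02), against 714 and 5447 in revert (-2.93). In the whole family 23 of 30 measured genes lay below 0 (background: 46.1%), with these 2 at least 2-fold lower (background: 0.9%). The family median was -0.24, against -0.25 in revert.

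A few enzyme genes were nearly as low. Sodh1, which encodes sorbitol dehydrogenase, read 866 after bacteria and 4989 after PBS (5.76-fold lower), and 870.5 after bacteria and 3302 after PBS in revert (-1.92), with nearly the same level after bacteria in both. Miox, which encodes the myo-inositol oxygenase, read 709 and 2189.9 (-1.63), against 576 and 1599 in revert (-1.47). CG32444 read 577 and 3526 (-2.61), against 757 and 2489 in revert (-1.72). Miox and CG32444 belong to none of the gene lists. In the list of sugar, glycogen and polyol genes 17 of 19 lay below 0, where 46.1% of measured genes did. The list median was -0.39, against -0.28 in revert, and Sodh1 was the 1 member at least 2-fold lower (background: 0.9%). In it fbp, the gluconeogenic fructose-bisphosphatase gene, read 1812 and 3268 (-0.85), Tps1, the trehalose synthase gene, 3305 and 5808 (-0.81), and the glucosidase gene tobi 3333 and 5393 (-0.69).

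Other genes at the low end had a wider gap than in revert. CG3699 read 241 and 1114 (-2.21), against 399 and 599 in revert (-0.58). The cytochrome P450 gene Cyp6w1 read 728 and 3197 (-2.13), against 472 and 846 in revert (-0.84). Had1, a beta-hydroxyacid dehydrogenase gene, read 1965 and 7352 (-1.90), against 2223 and 4289 in revert (-0.95), and CG3597 424 and 1581 (-1.90), against 479 and 913 in revert (-0.93). In CG3699, Cyp6w1, Had1 and CG3597 the PBS signal was higher in KG03723 than in revert. Cyt-b5-r, a cytochrome b5-related gene, had nearly equal ratios, -1.93 in KG03723 and -1.96 in revert. CG10621, CG11594 and CG9837 had log2 ratios of -2.06, -1.71 and -1.63, the last of which was -0.57 with a floor at the 60th percentile.

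**Figure D3:**
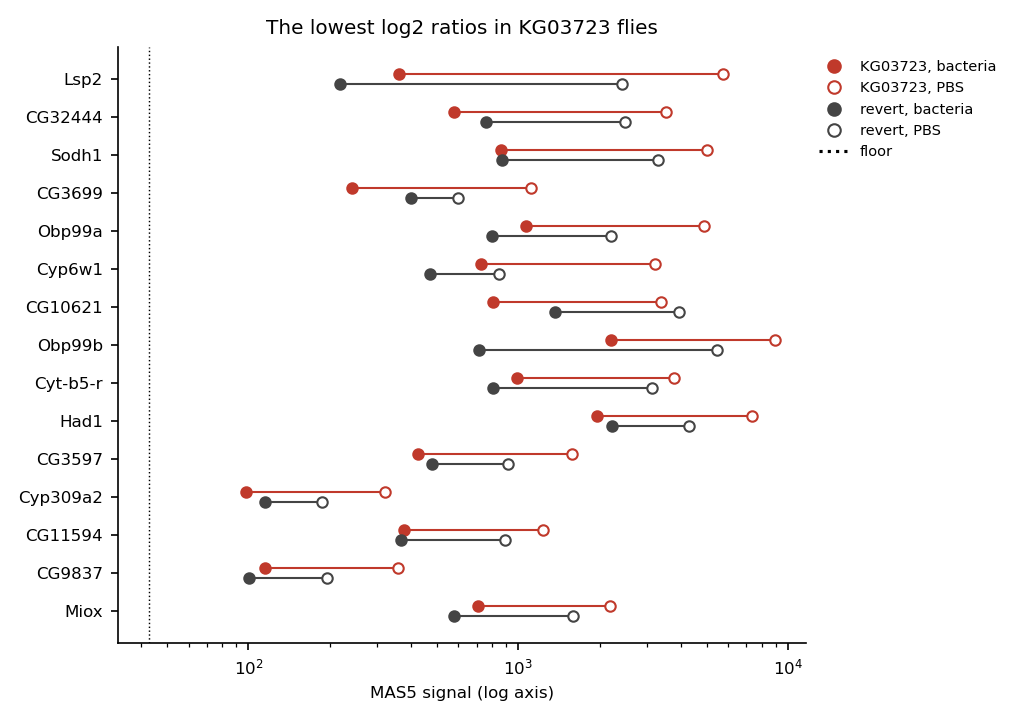
MAS5 signal on a log axis for the 15 genes with the lowest log2 ratio in KG03723 among those above the floor on both arrays. Filled points are bacteria arrays and open points PBS arrays, red for KG03723 and grey for revert, and the dotted line is the floor. The filled point lies left of the open one for each of these genes in both genotypes, and the open red point lies right of the open grey one for every gene but CG10621.

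Cytochrome P450 enzymes oxidise toxins, hormones and fatty acids. The median of their 68 measured genes was -0.33, against -0.21 in revert. Of these genes 59 lay below 0 (background: 46.1%) and 7 were at least 2-fold lower (background: 0.9%). Besides Cyp6w1 these included Cyp309a2 at 97.9 and 319.9 (-1.71), Cyp304a1 at 65.0 and 196 (-1.59) and Cyp309a1 at 298 and 764 (-1.36). With a floor at the 60th percentile Cyp309a2 gave -0.41, and Cyp304a1 was below that floor on both arrays. Cyp304a1 was below the floor on both revert arrays. Cyp309a1 and Cyp309a2 are neighbours in the RefSeq table. UDP-glycosyltransferase genes had 19 of 25 below 0 with a median of -0.21, and glutathione S-transferase genes 24 of 32 with a median of -0.09 (background for both: 46.1%). Their revert medians were -0.10 and -0.02.

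Most measured genes of fat synthesis and storage lay below 0. ACC, which encodes acetyl-CoA carboxylase, read 2293 after bacteria and 4350.4 after PBS (-0.92), and FASN1, a fatty acid synthase gene, 6303 and 11374 (-0.85). The synthesis list had 10 of 15 below 0 (background: 46.1%) and 0 members 2-fold apart (background: 1.4%). Its median was -0.14, against -0.13 in revert. The list of lipid storage, lipolysis and lipoproteins had 9 of 12 below 0 (background: 46.1%), with a median of -0.19, against 0.003 in revert. In it LpR2, a lipophorin receptor gene, was the 1 member at least 2-fold apart (background: 1.4%). It was higher after bacteria, at 946 and 425 (1.15), against 1636 and 1074 in revert (0.61). The lipase gene Lip4 read 257 and 467 (-0.86), against 255 and 189 in revert (0.43), and Lsd-1, which encodes the lipid droplet protein perilipin, 1473 and 2510.5 (-0.77).

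Genes of the basement membrane, the sheet of matrix proteins that blood cells and fat body secrete around organs, all had lower signals after bacteria. All 11 listed genes were measured and all 11 lay below 0, where 46.1% of measured genes did, with a median of -0.54 beside 0.02 for all genes. In revert the median was 0.02, with 6 of 11 above 0, and in rm7 0.15, with 9 above 0. Pxn, which encodes peroxidasin, read 118 after bacteria and 281 after PBS (-1.25), and 149 after bacteria and 162 after PBS in revert (-0.13). It was the 1 member at least 2-fold lower, and its other probe set was below the floor on both KG03723 arrays, so that the mean over both gave -0.62, and a floor at the 60th percentile gave -0.22. The nidogen gene Ndg read 69.8 and 126 (-0.85), against 118 and 109 in revert. The collagen IV genes Col4a1 and vkg read 1319 and 2288 (-0.80) and 1609.6 and 2345 (-0.54), against 1636 and 1669.6 in revert and 1662 and 1732 in revert.

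The levels of these basement membrane genes were set beside revert after each injection. After PBS 11 of the 11 genes read higher in KG03723 than in revert, by a median log2 of 0.21. After bacteria 10 of the 11 read lower, by a median of -0.31. The share of all measured genes that read higher or lower than revert was not counted. With 1 array per group, a shift of a KG03723 array and one of a revert array cannot be told apart. Plasmatocytes are the phagocytic blood cells, and their marker list shares Pxn, Ppn, Col4a1 and vkg with the basement membrane list. Several of its genes are also made by the fat body. Of 16 measured markers 13 lay below 0 (background: 46.1%), with a median of -0.54, against -0.05 in revert. The 3 above 0 were NimB1, higher by the bound of at least 2.37-fold given above, He, at 69.5 and 47.9 (0.54), and eater. NimB1 was the 1 marker at least 2-fold higher and Pxn the 1 at least 2-fold lower. The scavenger receptor gene Sr-CI read 103 and 203 (-0.97), against 212 and 179 in revert (0.24). The phagocytosis receptor gene NimC1 read 403 and 579.6 (-0.52), against 232 and 358 in revert (-0.63), and Hml, which encodes hemolectin, 241 and 376 (-0.64), against 318 and 576 in revert (-0.86). Eater, another phagocytosis receptor (gene eater), lay near 0, at 135 and 129 (0.07). The list of crystal cell and lamellocyte markers had 3 of 8 measured genes above 0 (background: 53.9%) and a median of -0.10. It had 0 members 2-fold apart (background: 1.4%). Of its prophenoloxidase genes, PPO1 read 619.6 and 1009.6 (-0.70), PPO2 427 and 584 (-0.45) and PPO3 65.1 and 53.6 (0.28).

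Among the other lists, digestive protease and amylase genes had 30 of 39 below 0 (background: 46.1%), 2 at least 2-fold lower (background: 0.9%) and a median of -0.25. Their revert median was 0.07. Jon25Bi read 1973 after bacteria and 4584 after PBS (-1.22), and 11865 after bacteria and 11939 after PBS in revert (-0.01), and Jon66Ci 433 and 873 (-1.01). Muscle genes had 16 of 18 below 0 (background: 46.1%) with a median of -0.20, against -0.06 in revert. Act88F was one of the others at 0.49. Cytosolic ribosomal protein genes lay above 0 in 39 of 41 cases (background: 53.9%), with a median of 0.14. Their medians in revert and rm7 were larger, at 0.23 and 0.24. Proteasome genes lay above 0 in 24 of 26 cases (background: 53.9%), with a median of 0.10, against 0.08 in revert and -0.11 in rm7. Of the 5 measured genes of JAK/STAT signalling and 8 of the antiviral type, the largest apart from Diedel was Vago, at 779 and 1849 (-1.25), against 92.0 and 129.8 in revert. Of the Turandot stress genes 2 were measured, TotC at 19388 and 17361 and TotB at 151 and 164. Of 7 measured cGMP genes and 14 measured genes of the Ras cascade, 0 were 2-fold apart (background: 1.4%). The phosphodiesterase gene Pde9 lay lowest of the cGMP genes, at 71.0 and 111 (-0.65).

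**Figure D4:**
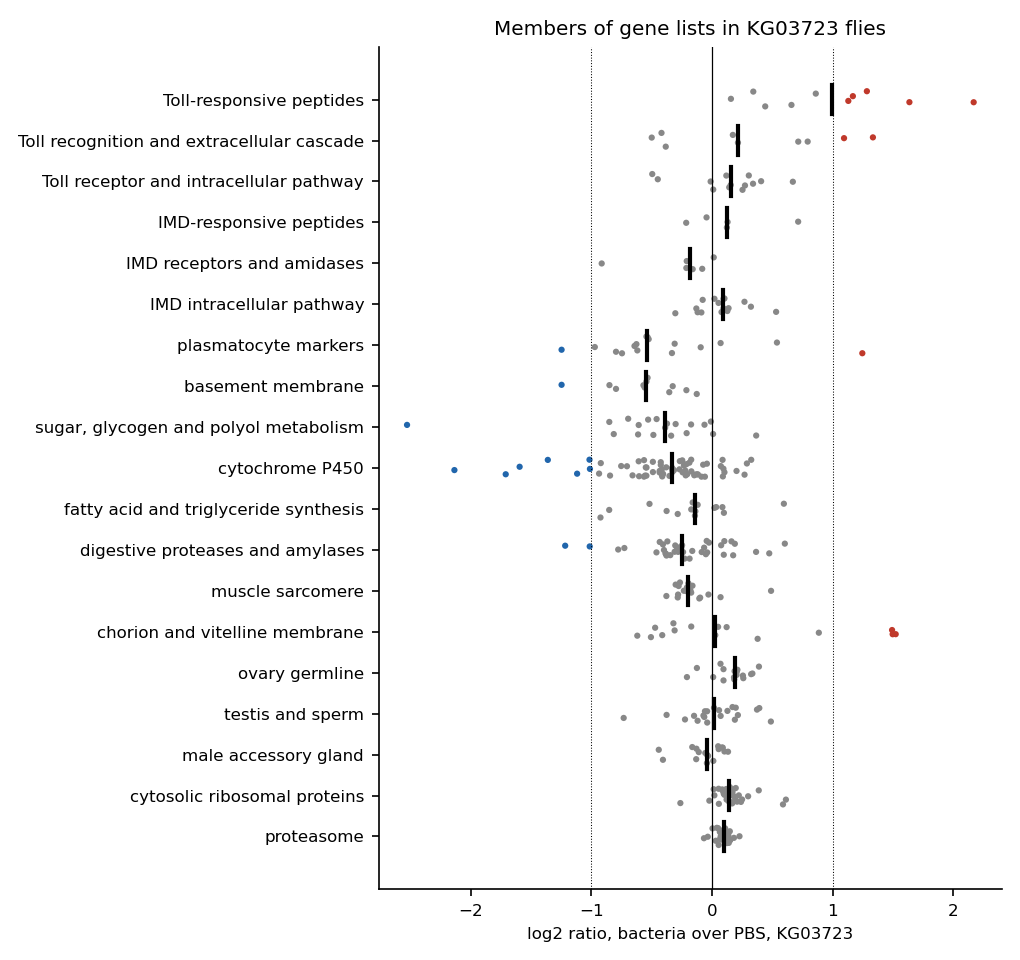
Log2 ratio, bacteria over PBS in KG03723, of each measured member of 19 gene lists. Red points are at least 2-fold higher, blue points at least 2-fold lower, black bars are list medians and dotted lines mark 2-fold. Toll-responsive peptides lie to the right of 0 and all 11 basement membrane genes to the left.

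The KG03723 response was set beside that of revert flies, which rests on different arrays. Of 9655 genes measured in revert, 59 (0.611%) reached 2-fold on the higher side and 346 (3.58%) on the lower, together 4.19%, and 49.4% lay above 0 and 50.6% below. The difference between the 2 responses has no test, since each is a ratio of single arrays. Of the 48 genes at least 2-fold higher in KG03723, 22 (45.8%) were so in revert, and these are 37.3% of the 59 in revert. Of the 87 lower genes, 24 (27.6%) were among the 346 lower in revert, 6.94% of those. Genes 2-fold apart in opposite directions numbered 0. Across the 8934 genes above the floor on all 4 arrays, the log2 ratios correlated with a Pearson r of 0.29 and a Spearman rho of 0.24. These points share their arrays, and genes are not independent replicates.

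Genes picked on the revert arrays alone gave a view of KG03723 that its own arrays did not choose. Of the 59 genes at least 2-fold higher in revert, 58 were measured in KG03723. Of these, 47 lay above 0 there (background in KG03723: 53.9%), with a KG03723 median of 0.78 beside 0.02 for all measured genes. Of the 346 genes at least 2-fold lower in revert, 344 were measured in KG03723. Of these, 198 lay below 0 there and 146 above (background in KG03723: 46.1% below), with a KG03723 median of -0.06. Medians of the same genes in revert (1.34 and -1.13) are raised in size by the choice of genes, so the gap between the genotypes is not read from them. Testis genes were among those that differed, with a median of 0.02 over 21 genes in KG03723 and -0.91 in revert. For 17 genes of the male accessory gland the median was -0.04 in KG03723 and -0.65 in revert. ProtB, a sperm chromatin protein gene, read 328 and 234 (0.49), against 175 and 464 in revert (-1.41). Tektin-A, a gene for a protein of the sperm tail, read 329 and 251 (0.39), against 143 and 386 in revert (-1.43). The lower signals in these 2 genes were thus on the revert bacteria array.

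Levels were also compared after each injection. Among the 48 higher genes, the KG03723 PBS signal lay below the revert PBS signal in 35 (median log2 difference -0.36), and the bacteria signal in 25 (-0.04). Among the 87 lower genes the KG03723 PBS signal lay above revert in 72 (0.49), and the bacteria signal in 36 (-0.08). The choice of these genes used the KG03723 PBS array, which favours such a pattern. The share of all measured genes on each side of revert was not counted, so these counts have no background beside them. Among genes above the floor on all 4 arrays, the widest gaps with the higher ratio in KG03723 were those of CG12983, sun, CG13693, ProtB, Tektin-A and CG5122, and no signal of these 6 genes on the 4 arrays was above 464. CG12983 read 137 and 77.6 (0.82), against 60.7 and 136 in revert (-1.17). A second CG12983 probe set ran the other way in KG03723, at 35.3 and 65.1 (-0.61), and the mean over both gave 0.10. On the other side, CG12998 read 148 and 151, against 555 and 166 in revert (1.74). Among the same genes the widest gap of that kind was that of CG13063, followed by CG10140, Doc1 and CG12998, and CG13063 had log2 ratios of -0.91 in KG03723 and 1.22 in revert.

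**Figure D5:**
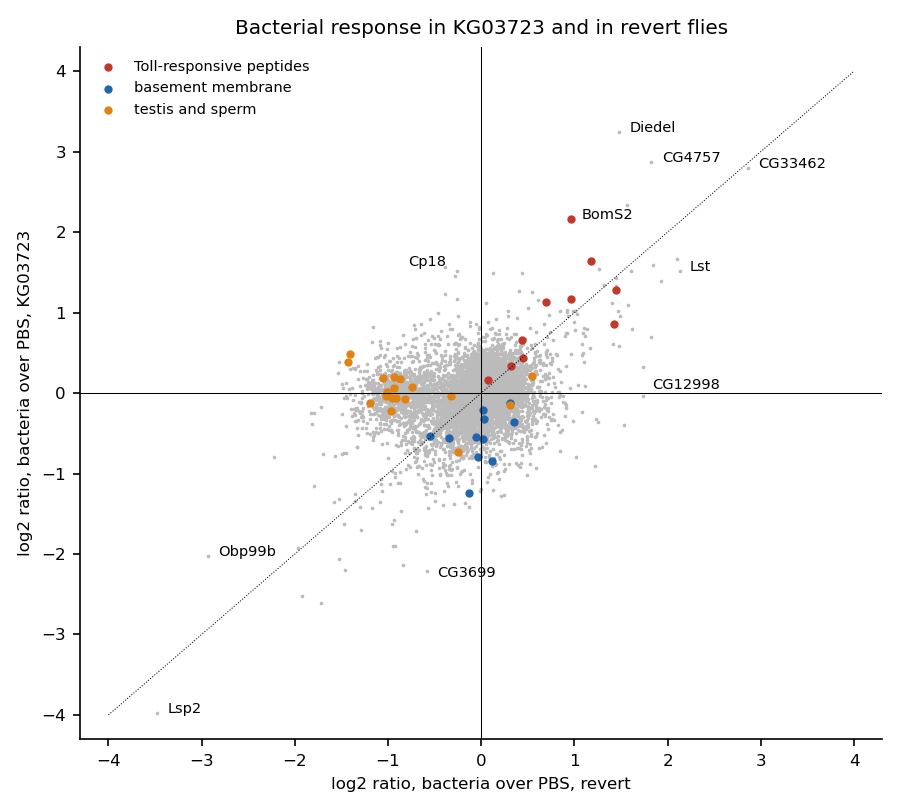
Log2 ratio, bacteria over PBS, in KG03723 (vertical axis) against revert (horizontal axis) for the 8934 genes above the floor on all 4 arrays. Red points are Toll-responsive peptides, blue points basement membrane genes and orange points testis and sperm genes, and the dotted line marks equal ratios. Diedel, CG4757 and BomS2 lie above the dotted line, Lsp2 far below 0 on both axes, and most testis genes left of 0 and close to 0 on the vertical axis.

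The rm7 flies, mutant for the Toll ligand Spätzle, were set beside KG03723 in the same way. Of 9783 genes measured in rm7, 0.644% reached 2-fold on the higher side and 0.337% on the lower, together 0.981%, with 50.4% above 0 and 49.6% below. Of the 48 higher genes 1 was at least 2-fold higher in rm7 (2.08% of the 48 and 1.59% of the 63 in rm7), and 4 were at least 2-fold lower there. Of the 87 lower genes 6 were at least 2-fold lower in rm7, 6.9% of the 87 and 18.2% of the 33 in rm7. Since the 48 genes were chosen on KG03723, the reverse view was taken too. Of the 63 genes at least 2-fold higher in rm7, 24 lay above 0 in KG03723 (background: 53.9%) and 39 below (background: 46.1%). Their KG03723 median was -0.09. The ratios of the 2 mutants correlated with a Pearson r of -0.16 over 8945 genes.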

How the data were processed

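Per the labels, biotinylated cRNA was hybridised to single-colour Affymetrix arrays. The authors deposited linear intensity values, 1 for each probe set on each array. The submitters' processing notes name MAS5, with no version. Each deposited array has a trimmed mean of 500.0. Of 18952 probe sets, 183 controls were left out. By the platform annotation 13647 have 1 gene, 402 several and 4720 none. A RefSeq table (assembly Release 6) held the symbols of 13544, and 0 changed. Each gene is represented by its probe set with the highest mean signal. Signals below the floor were set to it, log2 was taken, and PBS was subtracted from bacteria, so positive values are higher after bacteria. A gene was measured where it was above the floor on at least 1 of the 2 arrays. With 1 array per group no test was made, and the number of arrays limits the precision. Genes named are the 15 highest and 15 lowest above the floor on both arrays, the 5 largest bounds each way, measured Toll- and IMD-responsive peptides, the 4 largest members of each described list, the 6 widest gaps to revert each way, Gyc76C, cnk and spz. Outside this rule, and chosen after their values were seen, are BaraB, CG13813, CG16713, CG32642, CG7329, Cp36, Cp38, GNBP2, He, Hml, NimC1, PPO3, Ppn, eater, grass and vkg. Members, lists and this rule were chosen with earlier results of these data known. Software was Python 3.11.15, pandas 2.3.3, numpy 2.4.6, and limma 3.58.1 in R 4.3.3 for cyclic loess. The fold count was run on simulated data without noise, made from bright signals changed by known folds. That checks the arithmetic only and says nothing about dim signals or noise between arrays.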

Additional observations from a re-analysis of the deposited data

Results flagged for a closer look

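CG15674 stood out because its ratio went one way in KG03723 and the other way in revert. It read 35.01 after bacteria and 92.6 after PBS in KG03723, with the bacteria array below the floor, so the log2 ratio of -1.12 is a bound, and 121 after bacteria and 70.6 after PBS in revert (log2 0.77). The difference was not tested.

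Probe sets that the comparisons did not use, because the annotation lists no gene or several for them, also held signal above the PBS array. Among 981 measured probe sets with no listed gene, KG03723 had 12 that were 2-fold or more higher after bacteria and 7 that were lower, against 14 and 11 of 964 in revert. The background of measured genes is 0.496% higher and 0.9% lower in KG03723, and 0.611% and 3.58% in revert. Of 324 measured probe sets listed under several genes, 5 were higher and 4 lower, against 5 and 18 of 323 in revert. The 3 highest ratios of the KG03723 comparison lay here, with log2 values of 5.06 (7284 after bacteria and 219 after PBS), 4.19 (1189 and 65.3) and 4.12 (6500.2 and 374), all from probe sets listed under several genes and so not named. Counts of named genes leave out all such probe sets.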

How the results depend on the processing

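The counts of 48 higher and 87 lower genes changed by less than 1.5 times with quantile normalization (47 and 77, of which 44 and 76 were the same genes), cyclic loess (50 and 83, the same 46 and 79), a pseudocount of 16 in place of the floor (52 and 101, but only 40 and 65 the same), the mean over probe sets (48 and 85, the same 48 and 84) and ratios centred on their median (43 and 95, the same 43 and 87). They moved with the floor, to 206 and 368 at the 20th percentile (a signal of 10.9) and 26 and 50 at the 60th (a signal of 241), and with the fold, to 204 and 446 at 1.5-fold and 9 and 16 at 3-fold. So the counts depend on how dim signals are treated. Of 57 named genes at least 2-fold apart, 13 were below the higher floor on both arrays and so had no value there. The 13 were sun, Cyp304a1, Ilp5 and the 10 genes given as the largest bounds. Where the 57 had a value, 0 changed sign and 11 dropped under 2-fold in at least 1 alternative. In all, 21 of the 57 had no value at the higher floor or dropped under 2-fold. Those that dropped include CG30091 (0.58), CG18563 (0.88), Cyp309a2 (-0.41) and CG9837 (-0.57) with the higher floor and Pxn with the higher floor (-0.22) or the mean over probe sets (-0.62). Of 50 list medians, 49 stayed within the 0.29 SD between probe sets, the exception being drosomycin-like genes with the lower floor (0.58). The basement membrane median ran from -0.57 to -0.35, the Toll-responsive one from 0.86 to 0.99 and the eggshell one from -0.14 to 0.03, changing sign. No paired analysis was possible because each group holds 1 array.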

Other observations

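Several lists not described above stood close to their PBS level or below it in KG03723. Of 24 measured serpin genes, 2 reached 2-fold on the higher side (background: 0.496%) and 0 on the lower, 9 lay above 0 (background: 53.9%) and the median was -0.14, against 0.13 in revert. Beside nec and Spn28Dc, Spn88Eb read 2552 after bacteria and 1312 after PBS (0.96), and 1799 after bacteria and 639 after PBS in revert (1.49). The 4 measured metallothionein genes, whose proteins bind metal ions, had a median of 0.03, against 0.43 in revert. In them MtnB read 884 and 995 (-0.17), against 2023 and 1268 in revert (0.67). Cuticle protein genes had 18 of 25 below 0 (background: 46.1%) with a median of -0.30, against -0.02 in revert. Cpr62Bb was 2.3-fold lower, at 275 and 633, against 305 and 280.0 in revert (0.12).

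Among 13 measured hormone and insulin signalling genes, Lst was 2-fold higher and Ilp5, an insulin-like peptide gene, was lower by a bound of at least 2.02-fold, at 34.0 and 86.3, against 34.9 and 35.7 in revert, both below the floor in revert. All 3 measured lysozyme genes lay below 0, with a median of -0.41. LysX, a lysozyme gene, had a level that went with genotype more than with injection, at 11235 and 12524 in KG03723, 1047 and 1051 in revert and 85.5 and 23.7 in rm7. With 1 array per group these differences have no test.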
